A study of Mus musculus with 8 samples.

Results

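The genes described here handle iron and copper in Paneth cells (PCs), the secretory epithelial cells at the base of the small intestinal crypts. They are 10 genes of the 55414 in the deposited count table, listed by name because excess zinc competes with copper and iron, and not picked by their values. They comprise the ferritin subunits (Fth1 and Ftl1), the carriers and the reductase that move iron (Tfrc, Slc11a2, Slc40a1 and Cybrd1) and the proteins that carry copper (Slc31a1, Atp7a, Atp7b and Atox1). All 10 were in the table and 9 of them were among the 10707 genes with enough counts to be tested. Slc40a1 was not.

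PCs of C57BL/6J mice were purified from the small intestine by fluorescence-activated cell sorting and profiled by bulk RNA-seq, with 1 library for each mouse. In the control group, 4 mice drank Milli-Q water, which is highly purified, and 4 further mice drank water supplemented with ZnSO4 at 25 mM, each for 7 days. Every mouse, controls included, then received an injection of TNF (tumor necrosis factor, a cytokine of inflammation) and cells were taken 3 h later, so that no library shows PCs without TNF. The comparison asks whether zinc in the drinking water changed these transcripts under TNF.

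Cells store iron inside ferritin, a shell of heavy and light subunits, import it with the transferrin receptor or with a carrier for ferrous iron, and export it through ferroportin. In iron-poor cells, iron regulatory proteins bind a stem-loop called the iron responsive element (IRE): in a 5′ UTR this blocks translation, as in the ferritins, and in the 3′ UTR of Tfrc it protects the mRNA from decay, so ferritin protein can change without its mRNA. Copper enters through Slc31a1, is handed on by the chaperone Atox1 and is pumped by the ATPases Atp7a and Atp7b. In the intestine these proteins are best known from absorptive enterocytes.

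The IRE matches found in the members are shown because, in the known scheme, IREs separate mRNAs held back in translation from the mRNA of Tfrc, whose stability follows iron. The search used the letter C, 5 bases, the loop CAGTGN with a last base other than G, and 5 bases that pair with the first 5, plus a lower stem with at least 4 of 5 pairs, on the sense strand of canonical GENCODE transcripts (GRCm39). It matched the 5′ UTR of 5 of 20696 genes with such a UTR (0.0242%) and the 3′ UTR of 8 of 21536 (0.0371%). Among them were 3 members in the 5′ UTR and 1 in the 3′ UTR, while no match to these letters was found in Slc11a2 or the other members. The search was strict and misses sites with other unpaired bases or less pairing. A gene without a match, Slc11a2 included, may therefore still hold an IRE, and a gene with matches may hold more. The sites follow as 30 bases each, 5′ to 3′ on the strand of the gene, with the loop in capitals.
Fth1, 5′ UTR, chr19:9960096-9960125, plus strand: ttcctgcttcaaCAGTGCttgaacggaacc
Ftl1, 5′ UTR, chr7:45109202-45109231, minus strand: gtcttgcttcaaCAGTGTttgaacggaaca
Slc40a1, 5′ UTR, chr1:45964624-45964653, minus strand: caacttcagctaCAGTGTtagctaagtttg
Tfrc, 3′ UTR, chr16:32450037-32450066, plus strand: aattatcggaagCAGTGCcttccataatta
Tfrc, 3′ UTR, chr16:32450416-32450445, plus strand: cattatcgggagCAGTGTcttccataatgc
Tfrc, 3′ UTR, chr16:32450481-32450510, plus strand: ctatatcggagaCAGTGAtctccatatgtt
Tfrc, 3′ UTR, chr16:32450528-32450557, plus strand: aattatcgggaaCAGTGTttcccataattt
Each site lies within 1 exon. The match is a description of the letters and was not measured as binding.

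Levels within a gene are given in CPM (read counts divided by the library size and multiplied by 1e6) on library sizes scaled with TMM factors, which correct for a few genes taking much of a library. The libraries held 10623658 to 15101627 counts, and a gene without counts could have had up to 3 counts, equal to 0.179 to 0.369 CPM by library (counting error only). Zinc 3, that is replicate 3 of the zinc group, stood apart. The summed level of 18 genes of the TNF response was 159 CPM there against 1785 to 2088 CPM in the other 7 libraries, with 16 of the 18 at their lowest, although every mouse is labelled as having received TNF. Zinc 1, 2 and 4, at 1785 to 1811 CPM, also lay below every control (1820 to 2088 CPM). The summed level of 14 enterocyte markers was 546 CPM in zinc 3 against 91.4 to 175 CPM in the others, with 14 of 14 at their highest and no marker at 0 in all libraries. By this sum zinc 1 and 2, at 175 and 141 CPM, also lay above every control (102 to 133 CPM). Zinc 4, at 91.4 CPM, lay below them. All 10 tested enterocyte markers had estimates above 0 (median log2 fold change, zinc over Milli-Q water, 1.01). Without zinc 3, 6 enterocyte estimates were above 0 and 4 below (median 0.30). PC markers were present in every library, with 10 of 10 tested. Their summed levels were 414390 to 741443 CPM in the Milli-Q water group and 394128 to 494626 CPM in the zinc group. Of their log2 fold changes, zinc over Milli-Q water, 9 of 10 were below 0 (median -0.30), and 8 without zinc 3. Without Milli-Q water 3 and 4, 6 were above 0 and 4 below. In zinc 3, 3 of the 10 were at their lowest: Reg3g (662 CPM), Pla2g2a (589 CPM) and Sox9 (91.9 CPM). Of 8 erythroid markers, 7, including the globin genes and Alas2, were at 0 in every library (the exception was Epb42), and the summed level of 12 macrophage and leukocyte markers was 14.1 to 26.8 CPM with Milli-Q water and 13.3 to 28.2 CPM with zinc, nearly all of it Lyz2. In bulk samples fewer cells of a type and less RNA per cell cannot be told apart. Log2 fold changes are therefore given with and without zinc 3.

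No member passed the test. The groups were tested with edgeR's quasi-likelihood method on all genes, with Benjamini-Hochberg adjustment and a threshold of 0.05, and 0 of the 9 tested members were called, beside 0 of all 10707 genes (0%). Only Atp7b had an unadjusted p under 0.05 (1 of 9), and it was higher with zinc. Over all genes 10.2% reached that level, 6.42% higher and 3.78% lower, so that 1 of 9 is near the background. The groups overlapped at every member, while they did not at 5.87% of all genes, 2.76% higher and 3.12% lower. With 6 of the 9 estimates below 0 (49.2% of all genes) the median log2 fold change, zinc over Milli-Q water, was -0.13 for the members and 0.0062 for all genes. Without zinc 3, no member had an unadjusted p under 0.05 (8.06% of all genes) and the median of the members was -0.031. The p-values set the difference between the group means against the spread between these mice.

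**Figure D1:**
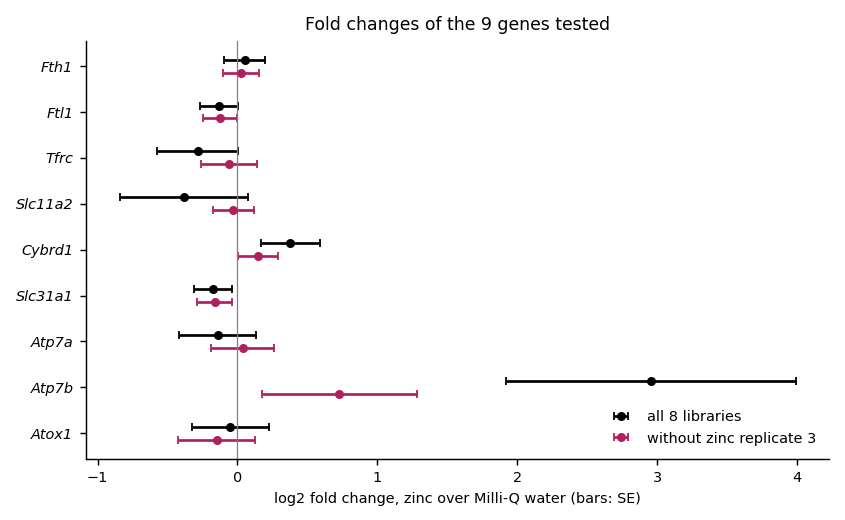
Log2 fold changes, zinc over Milli-Q water, of the 9 genes tested, from edgeR with all 8 libraries (black) and without zinc replicate 3 (red). Bars are standard errors. Atp7b moves from 2.96 to 0.73 and Slc11a2 from -0.38 to -0.031 when that library is left out, while Fth1 moves only from 0.051 to 0.028 and Ftl1 from -0.13 to -0.12.

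The ferritin genes were by far the most abundant members and among the steadiest. Fth1 (ENSMUSG00000024661, chr19:9957911-9962462, plus strand), the heavy subunit, which oxidises ferrous iron for storage, had 587, 580, 664 and 694 CPM in Milli-Q water 1 to 4 and 625, 608, 691 and 692 CPM in zinc 1 to 4. Within each group, replicates 3 and 4 were the higher and replicates 1 and 2 the lower, and the ranges lay almost on top of each other. The means were 631 ± 56.6 and 654 ± 43.7 CPM (SD, n = 4 each), with a fold change of 0.051 on the log2 scale (SE 0.146, edgeR quasi-likelihood adjusted p = 0.895). Ftl1 (ENSMUSG00000050708, chr7:45107367-45109308, minus strand), the light subunit, which helps the iron core to form, had 194, 186, 215 and 220 CPM with Milli-Q water and 198, 169, 185 and 193 CPM with zinc. Zinc 2 was the lowest library and Milli-Q water 3 and 4 the highest. The means were 204 ± 16.4 and 186 ± 12.8 CPM (log2 fold change -0.13, SE 0.137, edgeR quasi-likelihood adjusted p = 0.696). Zinc 3 was not an extreme for either ferritin, and without it the log2 fold changes were 0.028 and -0.12.

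**Figure D2:**
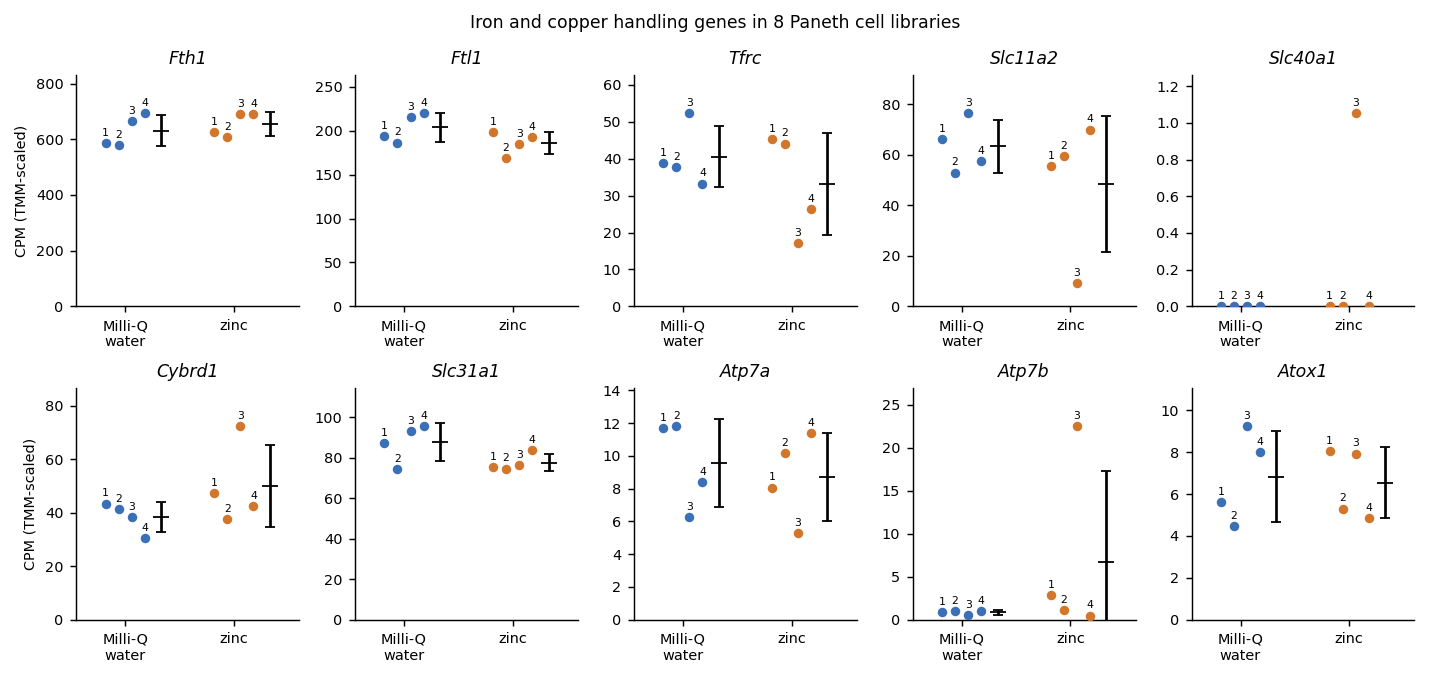
Level of each of the 10 genes in CPM on TMM-scaled library sizes (vertical axes start at 0 and differ between panels), with 1 point per library numbered by replicate, Milli-Q water in blue and zinc in orange. Black marks give the mean and the SD of 4 libraries, left out for Slc40a1, which had counts in 1 library. The 2 groups overlap in every panel, and zinc replicate 3 is the outlying point for Slc11a2, Cybrd1 and Atp7b.

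The balance of heavy and light subunit mRNA was higher in most zinc libraries. Per length of the union of annotated exons, the ratio of Fth1 to Ftl1 was 1.16, 1.19, 1.18 and 1.20 in Milli-Q water 1 to 4 and 1.20, 1.37, 1.43 and 1.37 in zinc 1 to 4. Zinc 2, 3 and 4 lay above every control and zinc 1 fell just under Milli-Q water 4, so the groups touched. The mean ratio was 1.18 ± 0.0193 with Milli-Q water and 1.34 ± 0.0969 with zinc (SD, n = 4 each). The ratio was not tested. It rests on a gene whose reads may be shared. Of the words of 75 bases in the canonical Ftl1 transcript, 84.7% also occur, on either strand, in transcripts of other genes. Ftl1 pseudogenes were among these genes, and the share was 34.7% for Fth1. Both shares include overlapping genes on the opposite strand (Gm10252 for Ftl1, Gm36913 for Fth1). Such words can come from the same place in the genome, so the shares do not measure reads that match several places alone. The sources used here do not say how reads that match several places were counted, so the Ftl1 count and the ratio are uncertain. The named pseudogenes themselves held few counts, 60 in total over 3 Ftl1 or Ftl2 pseudogenes beside 19951 for Ftl1, and 43 for 1 Fth1 pseudogene beside 65951 for Fth1.

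Among the genes of iron entry, Tfrc and Slc11a2 had their lowest level in zinc 3. Tfrc (ENSMUSG00000022797, chr16:32427556-32451612, plus strand), the transferrin receptor whose mRNA carries the 4 sites printed above, had 38.8, 37.6, 52.3 and 33.3 CPM with Milli-Q water and 45.4, 44.0, 17.1 and 26.3 CPM with zinc. Zinc 1 and 2 lay within the range of the controls, while zinc 3 and 4 lay below it. The means were 40.5 ± 8.22 and 33.2 ± 13.8 CPM (log2 fold change -0.29, SE 0.287, edgeR quasi-likelihood adjusted p = 0.684), and -0.060 without zinc 3. Slc11a2 (ENSMUSG00000023030, chr15:100285776-100322953, minus strand), which encodes DMT1, the carrier of ferrous iron, had 66.4, 53.0, 76.6 and 57.5 CPM with Milli-Q water and 55.5, 59.5, 9.12 and 70.0 CPM with zinc. The 3 other zinc libraries fell inside the range of the controls and zinc 3 alone was far below it. The means were 63.4 ± 10.4 and 48.5 ± 27.0 CPM (log2 fold change -0.38, SE 0.457, edgeR quasi-likelihood adjusted p = 0.733), and -0.031 without zinc 3. The low values of Slc11a2 and Tfrc coincided with the low TNF response and the high enterocyte markers of the same library. Some crypt stem cell and goblet cell markers were also highest there, and the part of any of these in them was not tested.

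Cybrd1 and Slc40a1 had their highest level in zinc 3. Cybrd1 (ENSMUSG00000027015, chr2:70948267-70973270, plus strand), the ferric reductase of the duodenal brush border, had 43.4, 41.3, 38.4 and 30.4 CPM with Milli-Q water and 47.3, 37.7, 72.2 and 42.3 CPM with zinc. Zinc 1 and 3 exceeded all controls and zinc 2 and 4 fell among them. The means were 38.4 ± 5.69 and 49.9 ± 15.4 CPM (log2 fold change 0.38, SE 0.212, edgeR quasi-likelihood adjusted p = 0.514), and 0.15 without zinc 3. Slc40a1 (ENSMUSG00000025993, chr1:45947211-45965683, minus strand), which encodes ferroportin, the iron exporter, had 0 counts in 7 libraries and 15 counts, or 1.05 CPM, in zinc 3. No fold is given for it, and at this depth a level under 0.179 to 0.369 CPM in the other libraries was not detectable. The summed enterocyte markers were also highest in zinc 3, and so were 6 of 8 crypt stem cell markers and 4 of 10 goblet cell markers taken singly. The part of any of these lists in these values was not tested.

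**Figure D3:**
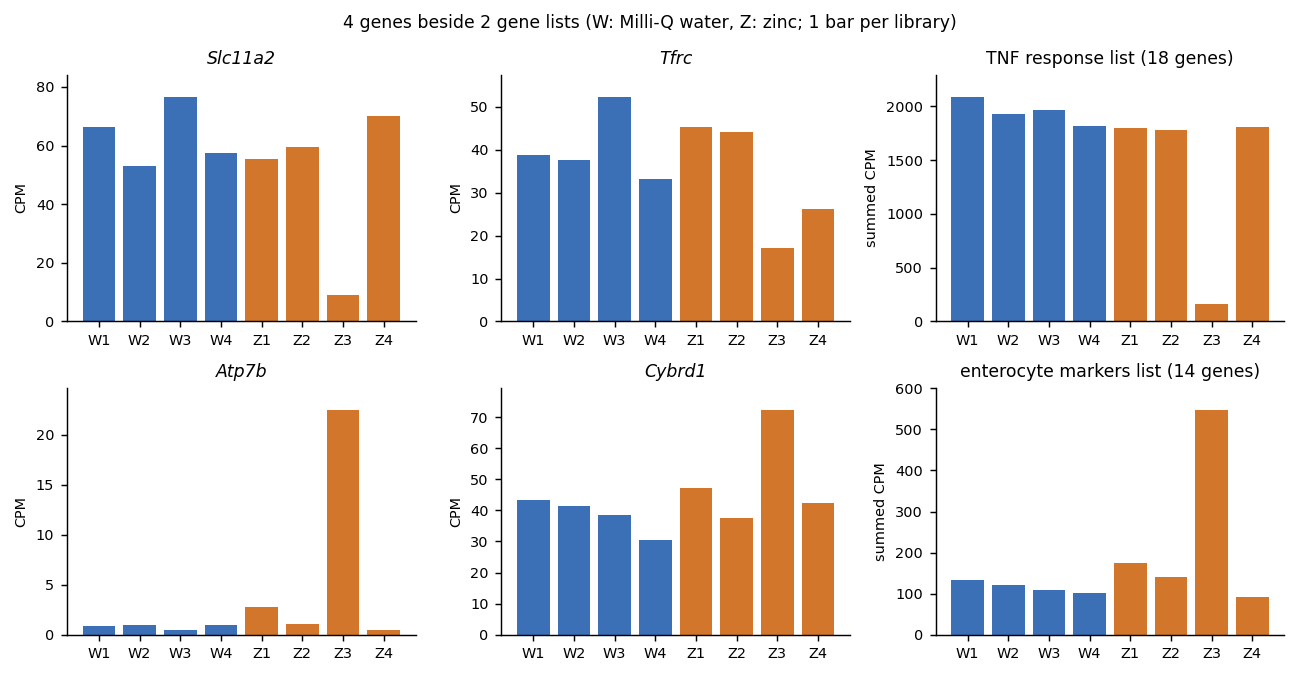
Level in each library (W, Milli-Q water; Z, zinc; replicates 1 to 4) of Slc11a2, Tfrc, Atp7b and Cybrd1 in CPM, beside the summed CPM of 18 genes of the TNF response and of 14 enterocyte markers. In zinc replicate 3 (Z3) Slc11a2 stands at 9.12, Tfrc at 17.1, Atp7b at 22.5 and Cybrd1 at 72.2 CPM, where the TNF response sums to 159 and the enterocyte markers to 546 CPM.

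The copper importer mRNA varied little between libraries. Slc31a1 (ENSMUSG00000066150, chr4:62278085-62320861, plus strand), which encodes the high-affinity copper importer CTR1, had 87.3, 74.4, 93.2 and 95.4 CPM with Milli-Q water and 75.4, 74.6, 76.5 and 83.7 CPM with zinc. Milli-Q water 1, 3 and 4 lay above all zinc libraries and Milli-Q water 2 below them. The means were 87.6 ± 9.39 and 77.6 ± 4.18 CPM (log2 fold change -0.17, SE 0.133, edgeR quasi-likelihood adjusted p = 0.598), and the estimate was -0.16 without zinc 3. On the opposite strand the gene overlaps Cdc26 and Fkbp15, with 748 and 3606 counts. The library kit kept the strand, but the sources used here do not say whether the counting used it, so reads of the overlap are uncertain.

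The copper pumps and their chaperone did not pass the test either. Atp7a (ENSMUSG00000033792, chrX:105070845-105171766, plus strand), which passes copper to secreted enzymes and exports it across the basolateral membrane, had 11.7, 11.8, 6.28 and 8.40 CPM with Milli-Q water and 8.06, 10.2, 5.26 and 11.4 CPM with zinc. Replicate 3 was the lowest of each group. The means were 9.54 ± 2.69 and 8.72 ± 2.68 CPM (log2 fold change -0.14, SE 0.274, edgeR quasi-likelihood adjusted p = 0.843), and the sign turned without zinc 3, to 0.038. Atox1 (ENSMUSG00000018585, chr11:55336780-55352132, minus strand), the chaperone that delivers copper to both pumps, had 5.61, 4.47, 9.23 and 8.0 CPM with Milli-Q water and 8.06, 5.31, 7.93 and 4.84 CPM with zinc. High and low libraries occurred in each group. The means were 6.82 ± 2.18 and 6.53 ± 1.70 CPM (log2 fold change -0.050, SE 0.277, edgeR quasi-likelihood adjusted p = 0.949), and -0.15 without zinc 3, with a sign that turned under several other settings.

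Atp7b was the member with the largest estimate, and most of its size came from zinc 3. Atp7b (ENSMUSG00000006567, chr8:22482801-22550352, minus strand), the pump best known for loading copper into bile and ceruloplasmin in the liver, had 13, 17, 4 and 12 counts in Milli-Q water 1 to 4 and 30, 15, 320 and 6 counts in zinc 1 to 4. In CPM these were 0.889, 1.01, 0.492 and 0.959 with Milli-Q water and 2.81, 1.08, 22.5 and 0.484 with zinc. Zinc 3 stood far above all others, zinc 1 and 2 also exceeded every control, and zinc 4 was the lowest of the 8. The means were 0.838 ± 0.236 and 6.71 ± 10.5 CPM (log2 fold change 2.96, SE 1.03, unadjusted p = 0.0163, edgeR quasi-likelihood adjusted p = 0.485). Without zinc 3 the log2 fold change was 0.73 with an edgeR adjusted p of 0.773. Over all alternatives the adjusted p of Atp7b lay between 0.168 and 0.931. All 14 enterocyte markers, 6 of 8 crypt stem cell markers and 4 of 10 goblet cell markers were also highest in zinc 3. The summed enterocyte markers also lay above every control in zinc 1 and 2 and were lowest in zinc 4. The part of these lists was not tested.

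Zinc 3 was the highest library for 2 of the 9 tested members (Cybrd1 and Atp7b) and the lowest for 3 (Tfrc, Slc11a2 and Atp7a). Over all genes tested it was the highest for 29.8% and the lowest for 30%, so extremes in this library were common across genes. Milli-Q water 3, the library with the smallest scaling factor (0.758), was the highest for 3 members and the lowest for 0, beside 18.6% and 16.5% of all genes. Milli-Q water 4 was the highest for 3 members and the lowest for 1, beside 9.62% and 11.7% of all genes.

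Between genes, levels can be compared only per length, as TPM (counts per base of transcript, scaled to sum to 1e6 in each library). With the union of annotated exons as length, the order over all 8 libraries was Fth1 (mean 168 TPM), Ftl1 (133), Slc31a1 (9.60), Cybrd1 (7.76), Tfrc (4.79), Slc11a2 (4.61), Atox1 (1.17), Atp7a (0.723), Atp7b (0.555) and Slc40a1 (0.0135). The mean of Ftl1 was 13.9 times that of Slc31a1, the next gene, and in 8 of 8 libraries Fth1 exceeded Ftl1 and Ftl1 exceeded Slc31a1. Several neighbours lower in the order changed places between libraries: Slc31a1 exceeded Cybrd1 in 7 of 8 libraries, Tfrc exceeded Slc11a2 in 5 of 8 and Atox1 exceeded Atp7a in 6 of 8. Atp7b took its mean from zinc 3 at 3.32 TPM, and was 0.117 ± 0.0529 TPM in the Milli-Q water group. A union of exons counts rare exons in full, 3520 bases for Fth1 against 929 in its canonical transcript. By canonical length Fth1 stood at 550 TPM and Ftl1 at 159 TPM, while Slc11a2 (14.6 TPM) and Atox1 (8.50 TPM) ranked above Cybrd1 (6.69 TPM) and Tfrc (5.96 TPM). By either length the ferritins came first, Slc31a1 next, and Atp7a, Atp7b and Slc40a1 last.

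**Figure D4:**
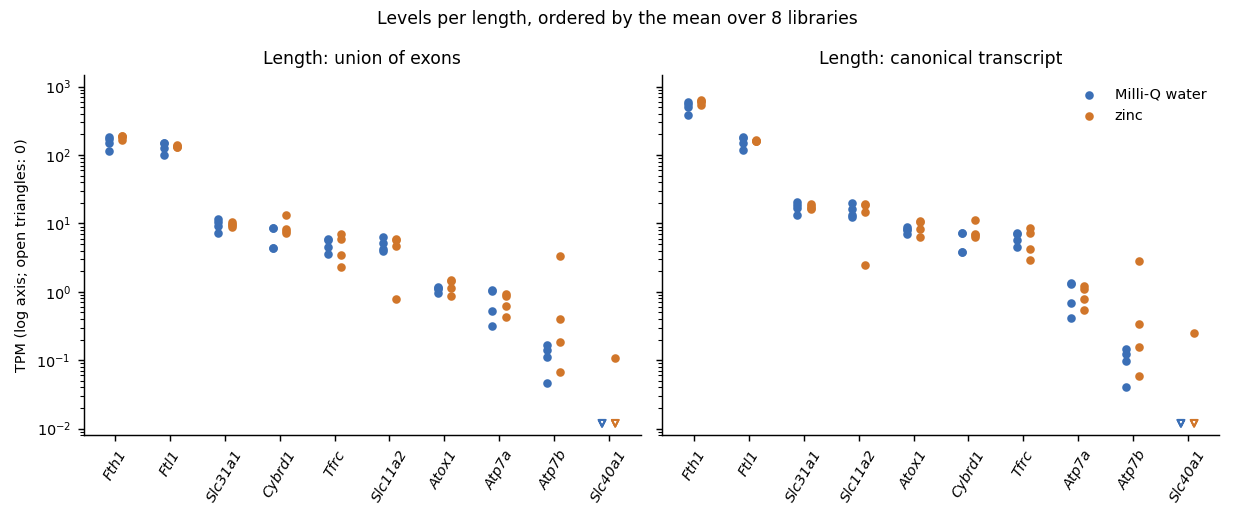
Levels in TPM on a log axis for the 10 genes, ordered by the mean over 8 libraries, with the union of exons (left) or the canonical transcript (right) as length. Each point is 1 library, Milli-Q water in blue and zinc in orange, and open triangles stand for 0. The ferritins lie above all other genes in both panels, while the order of Cybrd1, Tfrc, Slc11a2 and Atox1 depends on the length used.

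For each tested member, the protein-coding gene with the most similar profile was found as the smallest root mean square difference of centred log2 CPM over the 8 libraries. The genes were Vapb for Fth1 (0.0590), Pglyrp1 for Ftl1 (0.0511), Ythdc2 for Tfrc (0.112), Mpzl1 for Slc11a2 (0.153), Dsp for Cybrd1 (0.0783), Rer1 for Slc31a1 (0.0393), Lrrc20 for Atp7a (0.0666), Scin for Atp7b (0.249) and Rps21 for Atox1 (0.0517). For the flat profile of Fth1, 1695 genes lay within 0.2, so its nearest gene is 1 of many. For Slc11a2, 8 genes did, and Mpzl1 had 13.3 CPM in zinc 3 against 76.0 to 101 CPM elsewhere. For Atp7b no gene lay within 0.2, and Scin had 22.2 CPM in zinc 3 against 0.369 to 3.47 CPM elsewhere.

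The rest of iron handling was described with 43 further genes (sensors, oxidases and reductases, heme transport, iron-sulfur cluster assembly and hepcidin), of which 32 were tested. No gene was called in either direction, 15 estimates were above 0 and 17 below, and the median log2 fold change was -0.0078. An unadjusted p under 0.05 was reached by 1 higher and 0 lower genes, beside 10.2% of all genes, and without zinc 3 there were 1 higher and 3 lower, beside 8.06% of all genes. Slc48a1, a heme transporter of lysosomes, was the only one of the 32 tested genes whose groups did not overlap (5.87% of all genes), with 15.0, 13.8, 12.6 and 10.95 CPM with Milli-Q water and 19.0, 17.4, 32.3 and 16.9 CPM with zinc. Zinc 3 was the highest library and Milli-Q water 4 the lowest. Its log2 fold change was 0.71 (SE 0.221, unadjusted p = 0.00867, edgeR quasi-likelihood adjusted p = 0.485), and 0.44 without zinc 3. The next genes of smallest p on the higher side were Mcoln1, a lysosomal cation channel (log2 fold change 0.30, and 0.20 without zinc 3), and Slc46a1, a carrier of folate and heme. Slc46a1 had 8.14 CPM in zinc 3, its highest library, and its log2 fold change moved from 0.61 to 0.14 without it.

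On the lower side, the 3 genes of smallest p were Lcn2, Hamp and Slc39a8, and Steap4 was named for its high level. Hamp, which encodes hepcidin, the hormone that removes ferroportin from the cell surface, had 12.3, 3.16, 19.8 and 3.20 CPM with Milli-Q water and 5.15, 3.01, 0 and 3.39 CPM with zinc. Milli-Q water 1 and 3 were high, and Milli-Q water 2 and 4 lay among the zinc libraries. Its log2 fold change was -1.73 (SE 0.847, edgeR quasi-likelihood adjusted p = 0.491), and -1.28 without zinc 3. Lcn2, the siderophore-binding lipocalin, had 24.1, 13.3, 17.7 and 4.88 CPM with Milli-Q water and 1.97, 6.74, 0.0702 and 10.3 CPM with zinc, with Milli-Q water 4 inside the zinc range. Its log2 fold change was -1.65 (SE 0.794, edgeR quasi-likelihood adjusted p = 0.490), and -1.21 without zinc 3. Steap4, a reductase of iron and copper, was at 0 in zinc 3, which allows up to 0.211 CPM, against 80.3 to 248 CPM in the other libraries, and its log2 fold change moved from -1.25 (edgeR adjusted p = 0.606) to -0.83 without that library. The TNF response was also lowest in zinc 3, and its part in these values was not tested. All 17 tested TNF response genes had estimates below 0 (median log2 fold change -0.49). Without zinc 3, 11 were below 0 and 6 above (median -0.15). In that setting 6 reached an unadjusted edgeR p under 0.05, all lower (35.3%, beside 8.06% of all genes in either direction). Slc39a8, an importer of zinc, iron and manganese, had a log2 fold change of -0.29, and -0.20 without zinc 3. Among the most abundant genes of the list, besides Steap4 and Slc39a8, were the iron chaperones Pcbp1 (75.4 TPM) and Pcbp2 (12.9 TPM), with log2 fold changes of -0.011 and 0.13, and 0.090 and 0.052 without zinc 3.

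The rest of copper handling was described with 27 genes, of which 20 were tested. No gene was called, 9 estimates were above 0 and 11 below, and the median log2 fold change was -0.12. An unadjusted p under 0.05 was reached by 0 higher genes and 1 lower, beside 10.2% of all genes, and without zinc 3 there were 2 higher and 0 lower, beside 8.06%. The lower gene was Slc31a2, a relative of Slc31a1 that acts on intracellular copper stores, with 14.1, 12.6, 15.0 and 15.0 CPM with Milli-Q water and 9.93, 10.6, 8.07 and 14.1 CPM with zinc. Zinc 1, 2 and 3 lay below all controls and zinc 4 among them. Its log2 fold change was -0.41 (SE 0.181, unadjusted p = 0.0468, edgeR quasi-likelihood adjusted p = 0.485), and -0.29 without zinc 3. Sco1, which loads copper into cytochrome oxidase, and Vps35, a retromer subunit that recycles copper transporters, had log2 fold changes of -0.45 and -0.24, and -0.25 and -0.20 without zinc 3. On the higher side were the copper enzymes Pam (0.42, and 0.48 without zinc 3) and Aoc1 and the cytochrome oxidase assembly factor Cox11 (0.56, and 0.81 without zinc 3). Aoc1 was highest in zinc 3, at 29.8 CPM, and its log2 fold change moved from 0.48 to 0.23 without it. The most abundant genes, besides Slc31a2 and Aoc1, were the mitochondrial phosphate and copper carrier Slc25a3 (19.5 TPM), Rab7 (15.6 TPM) and the superoxide dismutase Sod1 (4.40 TPM). Sod1 had 41.6 ± 7.35 CPM with Milli-Q water and 41.5 ± 5.14 CPM with zinc.

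**Figure D5:**
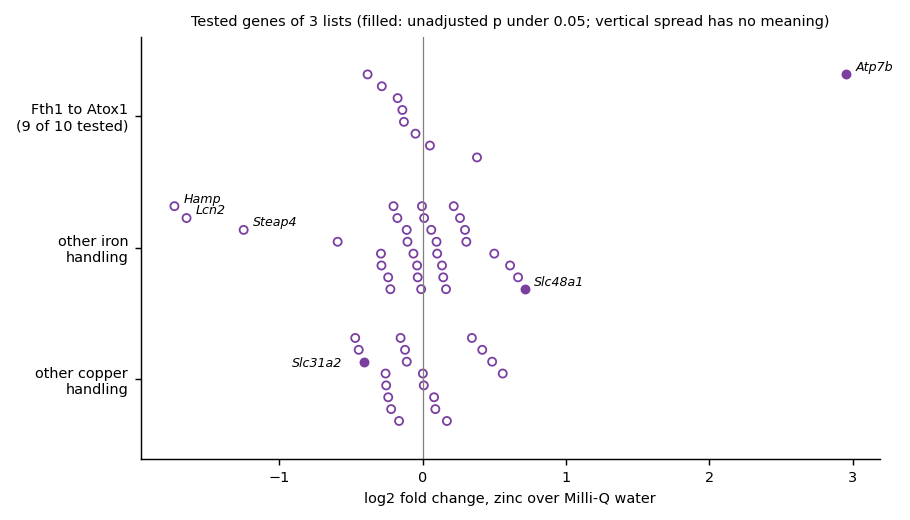
Log2 fold changes, zinc over Milli-Q water, of the tested genes among Fth1 to Atox1, the other iron handling list (32 genes) and the other copper handling list (20 genes). Each circle is 1 gene, filled where the unadjusted p was under 0.05, and names are given for those and for genes beyond 1 on either side. Most circles lie near 0, with medians of -0.13, -0.0078 and -0.12.

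Mt1, Mt2 and Slc30a1, which cells are known to induce when zinc is high, serve as a check of the labels. Mt2, a metallothionein, which binds zinc and copper, had 6.50, 7.09, 22.9 and 4.00 CPM with Milli-Q water and 172, 49.8, 8.35 and 4.03 CPM with zinc. Mt1 had 35.98 to 68.2 CPM with Milli-Q water and 254, 106.5, 29.5 and 45.0 CPM with zinc, and the zinc exporter Slc30a1 had 0 to 0.893 CPM and 4.78, 3.23, 1.97 and 0.484 CPM. Zinc 1 and 2 were high for Mt1 and Mt2, whereas zinc 3 and 4 lay within or below the range of the controls. The log2 fold changes were 2.57 for Mt2, 1.20 for Mt1 and 2.47 for Slc30a1, each with an edgeR quasi-likelihood adjusted p of 0.485, and were 2.97, 1.52 and 2.58 without zinc 3. Without zinc 1 they were 1.09 for Mt2 and 0.36 for Mt1. In zinc 1 and 2, the libraries with the highest metallothionein levels, Fth1, Tfrc, Slc11a2, Slc31a1, Atp7a and Atox1 lay within the range of the controls. Zinc 1 lay above that range for Cybrd1, zinc 2 below it for Ftl1, and both above it for Atp7b, with 30 and 15 counts. For Atp7b zinc 2 lay only just above it, at 1.08 against 1.01 CPM in Milli-Q water 2, which had 17 counts. The summed enterocyte markers were also above the controls in zinc 1 and 2 (175 and 141 against 102 to 133 CPM), and their part was not tested.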

How the data were processed

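The deposited file was a single table with the raw read counts of the 8 libraries, by Ensembl identifier, made by the authors. The submitters' processing notes name FastQC 0.12.0, STAR 2.7.10a, DESeq2 and the mm39 build. The methods of the study name a STAR version and a GENCODE release for its own mapping of many data sets, and the sources used here do not say whether these made the deposited counts, nor which counter and rule for reads matching several places did. Per the labels, libraries were made with a stranded mRNA kit. Identifiers were matched to GENCODE M39 (GRCm39), from which symbols, coordinates, lengths and UTR sequences were taken; 54749 matched and 665, holding 0.00443% of counts, did not. Groups came from the sample labels, and no library was left out of the test.

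The zinc and Milli-Q water groups were compared with the edgeR 4.0.16 quasi-likelihood F-test (R 4.3.3) with TMM factors and filterByExpr, which kept 10707 genes holding 99.9% of counts, and Benjamini-Hochberg adjustment over them. The biological coefficient of variation was 0.269. No pair of libraries agreed within sampling noise (smallest chi-square per degree of freedom 6.05). The steps were tested on simulated data for 4 against 4 libraries, where, of 10559 genes tested, log2 changes of 2 were called in 89% and log2 changes of 1 in 41.4% of cases. The changes were placed only in genes above a low limit of counts, and no simulated library departed from the others across genes. In the real data zinc 3 was the highest or lowest library for 59.8% of genes tested, so these rates may be too high for them.

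Named were the 10 members, Mt1, Mt2 and Slc30a1, and, of each of the iron and copper lists, any gene that passed or, with none, the 3 genes with the smallest p higher and lower, the 5 of highest TPM and those whose groups did not overlap, plus the nearest gene of each member; 1 gene that this rule names is not reported here. Members, lists and the libraries left out together were chosen with earlier results of these data known. Further lists were markers of PCs, enterocytes, goblet cells, crypt stem cells, erythroid cells and leukocytes, cell cycle genes and TNF response genes. The test was repeated with upper-quartile factors, with DESeq2 size factors, without a filter, without the Defa genes, with a stricter filter (1 CPM in 4 libraries and 100 counts), by DESeq2 1.42.0, by limma-voom (limma 3.58.1) with sample weights, with a block for the replicate number, with each library left out in turn, with the 6 libraries without Milli-Q water 3 and 4, with other lengths and, added after the data were seen, 5 libraries without Milli-Q water 3 and 4 and zinc 3, and the canonical length.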

Additional observations from a re-analysis of the deposited data

Results flagged for a closer look

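Of 86 groups of 4 libraries searched, 10 held a library whose gap to the nearest other exceeded Dixon's 95% limit, where chance gives 4.3. In the zinc group, 1 library, zinc 3, was far above the others for Atp7b (22.5 CPM), for Slc40a1 (1.05 CPM, the others at 0) and for Slc48a1 (32.3 CPM). The same library was far below the others for Pcbp1 (157 CPM), for Slc25a3 (121 CPM), for the summed level of the 43 other iron handling genes (868 CPM) and for that of the 18 TNF response genes (159 CPM). Of the 43 iron genes, 12 were nevertheless at their highest and 10 at their lowest in that library, with Steap4 at 0 CPM. Zinc 4 was far below the others for the summed cell cycle markers, at 53.9 CPM. In the Milli-Q water group, replicate 4 was far above the others for Pcbp1 (225 CPM) and replicate 3 for Mt2 (22.9 CPM). These measures share libraries, so the 10 are not independent of each other.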

How the results depend on the processing

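By edgeR and limma-voom, 0 genes were called under every setting run, and by DESeq2 4 of 18720 tested genes, none of them a member or a gene named from the lists, with an unadjusted p under 0.05 at 1286 (6.87%). The edgeR share at that level ran from 2.78% without Milli-Q water 3 and 4 to 17.9% without zinc 4. Of 557 recomputed log2 fold changes of named genes, 27 turned in sign, 12 of them among the 162 of the members, and no value that turned had been called. For Tfrc the value was 0.031 by limma-voom and 0.016 over 5 libraries, for Slc11a2 0.051 over 5 libraries, and for Slc25a3 0.055 over 5 libraries. For Atp7a, leaving out 1 library at a time gave -0.30 to 0.038. For Atox1, upper-quartile factors gave 0.0043, limma-voom 0.028, leaving out 1 library -0.22 to 0.11, 6 libraries 0.36 and 5 libraries 0.27. For Pcbp1 these were 0.029, 0.075, -0.057 to 0.090, 0.040 and 0.15. For Sod1, DESeq2 size factors gave -0.0076, no filter -0.0060, DESeq2 -0.013 and leaving out 1 library -0.070 to 0.12. The difference in the ferritin ratio, 0.162 by exon union, was 0.443 by canonical length and 0.424 in CPM, since the lengths multiply every ratio alike. With the replicate number as a block, 0 genes were called and 802 (7.49%) had an unadjusted edgeR p under 0.05. Deviations of same-numbered libraries correlated at -0.03, 0.01, 0.02 and 0.03, beside -0.14 to 0.16 for libraries of different number. The labels give only the number, and this correlation cannot show whether same-numbered mice shared anything else. Removing Defa genes multiplies all remaining TPM values of a library by the same factor. It therefore raised every value above 0 and could not change the order within a library. The order of the means given for exon unions was kept. Counts of 4 to 320 per library limit Atp7b, and 51 to 198 limit Atp7a.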

Other observations

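Other cell types in the sort were read from their marker lists, none with a called gene. Of 10 tested goblet cell markers, 6 estimates were above 0, with summed levels of 11544 to 16993 CPM with Milli-Q water and 13241 to 17258 CPM with zinc. Muc2 and Spink4 held most of these sums. An unadjusted edgeR p under 0.05 was reached by 4 higher markers and 1 lower, beside 6.42% and 3.78% of all genes. Among the higher were Fcgbp, Clca1 and Zg16 (log2 fold changes 1.81, 1.80 and 1.91), each highest in zinc 3. The other was Atoh1 (1.23), highest in zinc 1 at 133 CPM. The lower was Spdef (-0.45). Without zinc 3, 3 goblet cell markers were higher and 1 lower at that level, beside 8.06% of all genes in either direction. All 7 tested crypt stem cell markers had estimates above 0 (median log2 fold change 0.88), with summed levels of 433 to 623 CPM and 501 to 1106 CPM. Of 9 tested cell cycle markers, 8 had estimates above 0 (median 1.07), with 55.1 to 69.1 CPM and 53.9 to 117 CPM. At an unadjusted edgeR p under 0.05 were 3 of the 7 stem cell and 6 of the 9 cell cycle markers, all higher. Without zinc 3 there were 2 and 6, all higher, beside 8.06% of all genes in either direction. Without Milli-Q water 3 and 4 there were 1 of 8 and 2 of 10, all higher, beside 2.78%. The summed levels of the stem and cell cycle markers stood higher in zinc 1, 2 and 3 than in every control. By the same sums, zinc 4 lay within the controls for stem cell markers and below them for cell cycle markers. Single genes could differ: Cd44 was lowest in zinc 3 (5.89 CPM) and Pcna highest in Milli-Q water 3 (26.5 CPM).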
